A study of Drosophila melanogaster with 9 samples.

Results

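The circadian clock genes *Clk*, *cyc*, *per*, *tim*, *cwo*, *vri*, *Pdp1*, *cry* and *dbt* and the clock output gene *takeout* (*to*) were followed through the translatomes of *Drosophila melanogaster* follicle cells. The 10 genes were chosen by name, out of 14077 genes in the files, and the estimated reads of all annotated transcripts of a gene were summed. All 10 were among the 10870 genes that passed a filter on low counts and were tested.

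The fly clock is a loop of transcription and translation. CLK and CYC form a heterodimer that binds E-box sequences and activates *per*, *tim*, *vri*, *Pdp1* and *cwo*. PER and TIM return to the nucleus and repress CLK-CYC, VRI and PDP1 act on *Clk* in opposite directions, and CWO competes at E-boxes. DBT, a casein kinase, phosphorylates PER, and CRY is a blue-light receptor that sends TIM to degradation. *to* encodes a small secreted protein with a lipid-binding fold that was found as a clock-controlled gene and has been linked to feeding and starvation. In the fly ovary, PER and TIM proteins are known from follicle cells, where they stay in the cytoplasm and do not cycle as they do in the head.

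TRAP-seq captures mRNA on ribosomes that carry a GFP-tagged RpL10Ab, expressed only where a GAL4 driver is active. Fed SFC libraries came from PG150-Gal4>UAS-Rpl10A-GFP flies, whose driver is active in stretch follicle cells and also in centripetal cells. Starved AFC libraries came from GR1-Gal4>UAS-Rpl10A-GFP flies held off yeast for 16 to 20 h, on apple juice agar. Fed AFC libraries came from GR1-Gal4>UAS-Rpl10A-GFP flies. Both fed groups were kept for 3 days at 25°C, followed by 2 days with yeast paste. AFCs are all follicle cells after the early stages of oogenesis, which include the SFCs (the deposited labels call them main body follicle cells). All flies carried the tagged transgene beside their own *RpL10Ab*. About 100 flies went into a library, there were 3 libraries a group and 9 in all, and thoraxes and abdomens were collected. The time of day of collection is not given in the sources used here, so no level below can be placed in the daily cycle. No label ties a replicate to its own cross or rearing, so p-values measure the spread between these samples.

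Library totals were 30551253 to 45910215 reads. Reads on rRNA genes took 1.19% of fed AFC replicate 2 and 36.3% of SFC replicate 2, the lowest and highest shares. At least 10 reads fell on 13250 genes in fed AFC replicate 1, while the remaining 8 libraries reached 9273 to 10869 genes. These libraries stand apart, and members' LFCs that move most without them are given in both forms. *RpL10Ab*, the gene behind the tag, was read at 1816 ± 595 CPM in SFCs, 2851 ± 460.4 CPM in starved AFCs and 3399 ± 841 CPM in fed AFCs (mean ± SD, n = 3). CPM here are reads relative to library sizes scaled by the TMM method. A lower level in these bulk libraries can come from fewer cells of a type or from less RNA per cell, and these cannot be told apart.

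The members spanned a wide range of levels per length, given as CPM per kb of effective length and averaged over the 9 libraries. *cyc* stood highest at 95.7 ± 15.8 CPM per kb, above 86.9% of the genes tested, and *dbt* followed at 75.8 ± 22.01 CPM per kb, above 84.2% of them. *cry* averaged 41.6 ± 12.9 CPM per kb and *tim* 12.0 ± 6.06 CPM per kb. Below them came *Pdp1* at 6.41 ± 2.85 CPM per kb, *vri* at 5.94 ± 3.16, *cwo* at 3.97 ± 1.08, *to* at 2.97 ± 4.60 and *per* at 1.83 ± 0.55. *Clk* stood lowest at 0.71 ± 0.58 CPM per kb, above 16.2% of the genes. The activator pair was thus far from equal, with *cyc* 40.0 to 292 times as high as *Clk* per length in the 8 libraries that held any *Clk* read.

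Neighbours in this order were not all separated. *dbt* was above *cry*, and *cry* above *tim*, in all 9 libraries, although the ranges over libraries overlapped in both pairs. *cyc* was above *dbt* in 7 of 9 libraries, *Pdp1* above *vri* in 6 and *vri* above *cwo* in 7, and these orders were not tested. Some ratios of group means differed by group. That of *cyc* to *dbt* was 0.89 in SFCs, 1.70 in starved AFCs and 1.37 in fed AFCs, and that of *vri* to *cwo* was 1.96, 1.06 and 1.33. *to* also changed its place with the group. In level per length it averaged 7.79 ± 5.69 CPM per kb in SFCs, above 39.4% of the genes, against 0.52 ± 0.12 CPM per kb in starved AFCs (16.4% of genes below) and 0.61 ± 0.46 CPM per kb in fed AFCs (10.9% below). It exceeded *cwo* in level per length in 2 libraries, SFC replicates 1 and 2.

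**Figure D1:**
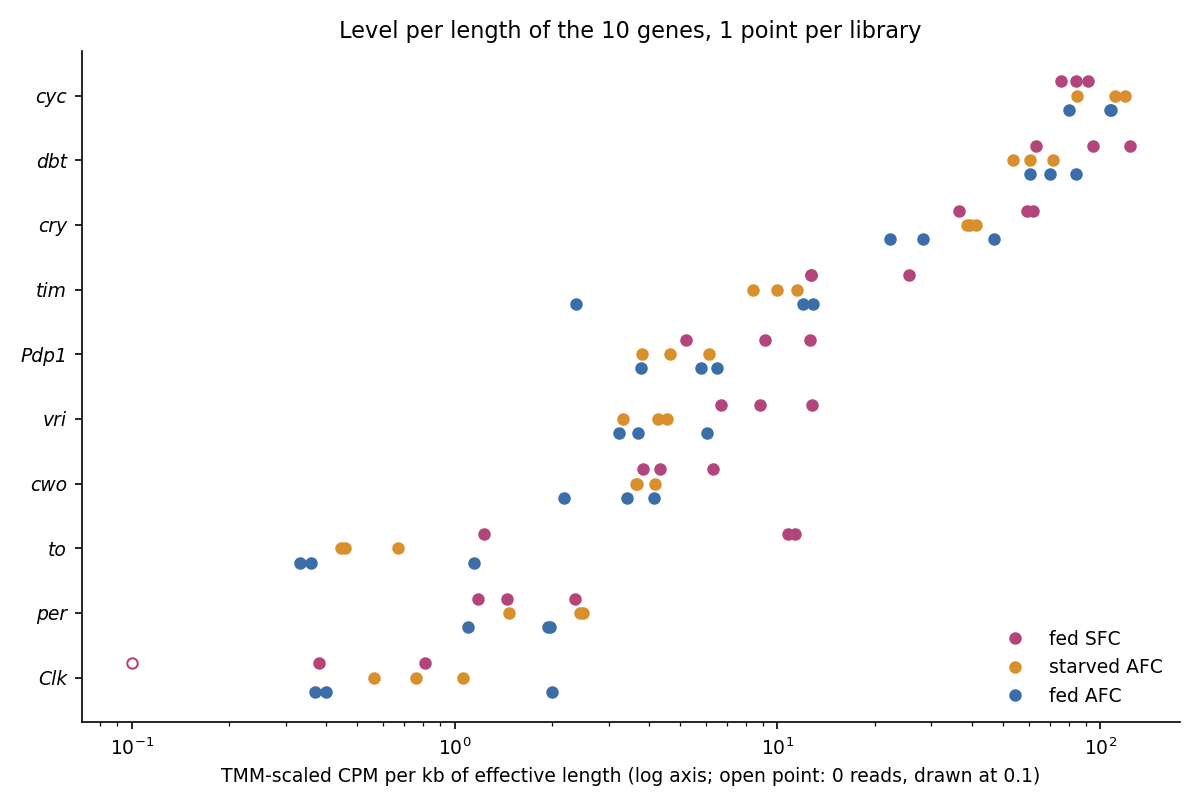
Level of each gene as TMM-scaled CPM per kb of effective length on a log axis, with 1 point per library and the groups fed SFC, starved AFC and fed AFC from top to bottom within a gene. *cyc* and *dbt* lie at the high end, *Clk* at the low end with 0 reads in 1 SFC library, and the points of *to* are spread most widely.

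The fed SFC and fed AFC libraries were compared for genes that differ between stretch cells and all follicle cells. The starved and fed AFC libraries were compared for genes that follow protein starvation. Every SFC library used the PG150 driver and every AFC library the GR1 driver. Cell type and driver line therefore cannot be told apart in the comparisons with SFCs. The members' calls were counted in edgeR's quasi-likelihood fit over all 10870 genes. In SFCs against fed AFCs, 0 of the 10 members passed an adjusted p of 0.05, where 2.99% of all genes passed and 1.21% were higher in SFCs. Without adjustment *vri* and *to* had p below 0.05, 2 of 10 members, against 19.7% of all genes. The 3 SFC values lay wholly apart from the 3 fed AFC values in 1 member, *vri*, against 20.9% of all genes. DESeq2 called 1 member, *to*, where it called 11.1% of the genes it tested, and limma-voom called 0, where it called 3.24%. The median log2 fold change (LFC) was 0.55 over the members and -0.10 over all genes, and it was positive in 7 of the 10 members.

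In starved AFCs against fed AFCs, 0 of 10 members were called, where 0.221% of all genes were, and DESeq2 and limma-voom each called 0, where they called 0.972% and 0.304% of their genes. At an unadjusted p below 0.05 the count was again 0 of 10, against 5.02% of all genes, and no member had groups that did not overlap, against 12.1% of all genes. The median LFC was -0.03 over the members and -0.09 over all genes.

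SFCs against starved AFCs tests whether the SFC and the starvation effects differ. Again 0 of 10 members were called by edgeR, where 2.22% of all genes were and 1.24% were higher in SFCs. *vri*, *Pdp1*, *dbt* and *to* had an unadjusted p below 0.05, 4 of 10 against 17.9% of all genes. The groups did not overlap in 4 members, *tim*, *cwo*, *vri* and *to*, against 24.6% of all genes. DESeq2 called 2 members, *vri* and *to*, where it called 10.0% of the genes it tested, and limma-voom 0, where it called 1.76%. The median LFC was 0.49 over the members and -0.02 over all genes. The comparisons share their libraries, so that the SFC values of both SFC comparisons are the same 3.

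**Figure D2:**
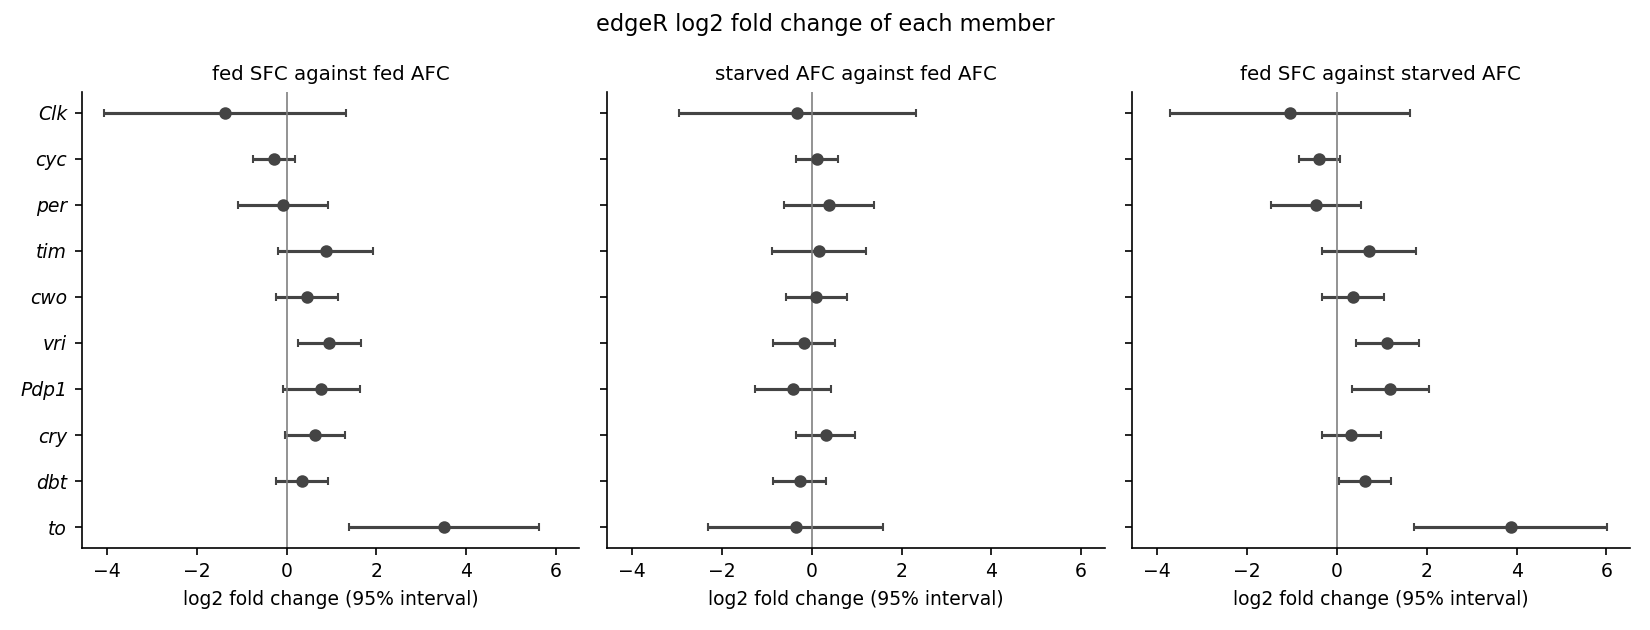
edgeR log2 fold change of each member (first-named group over the second) with its 95% interval, in the 3 comparisons. The interval of *to* lies above 0 in both SFC comparisons (1.40 to 5.62 against fed AFCs) and that of *vri* as well, every interval of the starved AFC comparison spans 0, and no member passed an adjusted p of 0.05.

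*Clk* and *cyc* encode the activators, both transcription factors with bHLH and PAS domains. *Clk* (FBgn0023076, chromosome 3L from 7763233 to 7775603 on the minus strand of BDGP6.54) was read at 1.43, 0 and 2.86 CPM in SFCs, at 2.06, 2.99 and 3.86 CPM in starved AFCs and at 8.24, 1.41 and 1.44 CPM in fed AFCs. The SFC value of 0 came from SFC replicate 2, where 0 reads allow up to 3 reads or 0.135 CPM, and the 8.24 CPM from fed AFC replicate 1, the highest library for 20.0% of the genes tested. The groups overlapped. The LFC was -1.36 (SE 1.24, adjusted p = 0.553 by edgeR) in SFCs against fed AFCs and -0.32 (SE 1.22, adjusted p = 0.995) in starved against fed AFCs. Without fed AFC replicate 1 these values were 0.02 and 1.06, so no direction can be given for *Clk*.

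*cyc* (FBgn0023094, chromosome 3L from 19813770 to 19815938 on the minus strand) had the smallest ratio of highest to lowest library of the 10, at 1.59. It was read at 99.8, 113 and 103.6 CPM in SFCs, 159, 112 and 144 CPM in starved AFCs, and 106, 140 and 137 CPM in fed AFCs. Its highest SFC library stood above its lowest starved and fed AFC libraries, so that the groups overlapped. The highest SFC library was 1.13 times the lowest, a smaller ratio than the median of 1.75 over the genes tested. The LFC was -0.28 (95% interval -0.74 to 0.18) in SFCs against fed AFCs, 0.11 (-0.35 to 0.57) in starved against fed AFCs and -0.39 (-0.85 to 0.07) in SFCs against starved AFCs. Without fed AFC replicate 2 the first was -0.17 and the second 0.22.

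*per*, *tim* and *cwo* encode the repressors. *per* (FBgn0003068, chromosome X from 2685580 to 2692780 on the plus strand) had 5.49, 8.44 and 4.52 CPM in SFCs, 9.72, 10.2 and 5.32 CPM in starved AFCs and 7.74, 4.26 and 7.39 CPM in fed AFCs. All 3 groups overlapped, and the library depth gave 166 to 428 reads on the gene. Its LFC was -0.07 (95% interval -1.07 to 0.93) in SFCs against fed AFCs and 0.38 (-0.62 to 1.38) in starved against fed AFCs. Without fed AFC replicate 2 these were -0.27 and 0.19, and without fed AFC replicate 1 they were 0.08 and 0.53.

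*tim* (FBgn0014396, chromosome 2L from 3493986 to 3508119 on the minus strand) encodes the partner that stabilises PER. It had 61.5, 119 and 58.6 CPM in SFCs, 48.2, 56.5 and 40.8 CPM in starved AFCs and 58.7, 11.5 and 60.3 CPM in fed AFCs. The SFC libraries all lay above the starved AFC libraries but not above the fed AFC libraries, of which replicate 2 was far below the others. That library was also the lowest of all 9 for *per* and *cry*. The LFC was 0.87 (SE 0.48, adjusted p = 0.341) in SFCs against fed AFCs, 0.45 without fed AFC replicate 2 and 0.58 without SFC replicate 2. It was 0.71 (SE 0.48, adjusted p = 0.475) in SFCs against starved AFCs and 0.36 without SFC replicate 2.

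Set against each other within a library, *tim* stood 8.79, 10.8 and 10.7 times as high as *per* per length in SFCs, 4.06, 4.61 and 5.68 times in starved AFCs and 6.10, 2.17 and 6.59 times in fed AFCs. The ratio in all 3 SFC libraries was above that in all 6 AFC libraries. It is 1 of 5 such ratios that were computed, and it was not tested. Between any pair of groups, 3 libraries against 3 cannot give a two-sided exact permutation p below 0.1. In the other 4 ratios (*cyc* over *Clk*, *vri* over *Pdp1*, *cry* over *tim*, *dbt* over *per*) the SFC values overlapped those of fed AFCs.

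*cwo* (FBgn0259938, chromosome 3R from 10388258 to 10400752 on the plus strand) had 20.2, 20.4 and 31.4 CPM in SFCs, 18.8, 18.0 and 19.4 CPM in starved AFCs and 17.0, 24.2 and 11.1 CPM in fed AFCs. All SFC values lay above all starved AFC values, while fed AFCs spread on both sides. The LFC was 0.46 (SE 0.32, adjusted p = 0.432) in SFCs against fed AFCs and 0.36 (SE 0.32, adjusted p = 0.595) against starved AFCs. Without fed AFC replicate 2 the LFC against fed AFCs was 0.83. The starved AFC libraries agreed within a ratio of 1.08, which 3.10% of genes undercut, and the fed AFC libraries differed by a ratio of 2.18.

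*vri* and *Pdp1* encode the bZIP factors of the second loop, VRI as repressor and PDP1 as activator of *Clk*. *vri* (FBgn0016076, chromosome 2L from 5288944 to 5311223 on the plus strand) had 21.4, 30.5 and 43.5 CPM in SFCs, 17.6, 15.2 and 11.01 CPM in starved AFCs and 21.0, 14.0 and 14.3 CPM in fed AFCs. It was the only member whose SFC values all lay above those of both AFC groups, although SFC replicate 1 and fed AFC replicate 1 were close. The LFC was 0.95 (SE 0.32, unadjusted p = 0.0116, adjusted p = 0.138 by edgeR) against fed AFCs and 1.12 (SE 0.32, adjusted p = 0.0989) against starved AFCs. Without SFC replicate 1 the adjusted p against starved AFCs was 0.0468, and DESeq2 gave 0.0277. Over the 19 alternatives it ranged from 0.0277 to 0.324.

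*Pdp1* (FBgn0016694, chromosome 3L from 7811458 to 7867369 on the minus strand, 35854 bases from *Clk*) had 19.6, 55.5 and 35.4 CPM in SFCs, 12.1, 21.2 and 15.1 CPM in starved AFCs and 31.5, 15.0 and 18.2 CPM in fed AFCs. SFC replicate 1 lay within both AFC groups and the other SFC libraries above them. The LFC was 0.77 (SE 0.39, adjusted p = 0.302) against fed AFCs and 1.19 (SE 0.40, unadjusted p = 0.0110, adjusted p = 0.148) against starved AFCs. Without SFC replicate 2 these were 0.47 and 0.82, and without fed AFC replicate 1 the LFC against fed AFCs was 1.15. Starved AFCs stood at -0.42 (95% interval -1.27 to 0.44) against fed AFCs, and at -0.04 without fed AFC replicate 1.

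*cry* and *dbt* set the pace and the light input of the loop. *cry* (FBgn0025680, chromosome 3R from 19212154 to 19215442 on the plus strand) had 94.6, 82.0 and 51.5 CPM in SFCs, 61.4, 59.7 and 61.2 CPM in starved AFCs and 72.6, 32.6 and 41.4 CPM in fed AFCs. The groups overlapped, and the starved AFC libraries were within a ratio of 1.03, closer than in all but 0.499% of the genes. The LFC was 0.64 (SE 0.30, adjusted p = 0.270) in SFCs against fed AFCs and 0.31 (SE 0.30, adjusted p = 0.982) in starved against fed AFCs. Without fed AFC replicate 1 these were 1.04 (adjusted p = 0.0568) and 0.72, and without fed AFC replicate 2 they were 0.46 and 0.13.

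*dbt* (FBgn0002413, named *dco* in the annotation, chromosome 3R from 31054085 to 31061210 on the minus strand) had 197, 300 and 373 CPM in SFCs, 164, 185 and 216 CPM in starved AFCs and 186, 276 and 220 CPM in fed AFCs. The groups overlapped, since SFC replicate 1 lay among the AFC libraries. The LFC was 0.35 (SE 0.27, adjusted p = 0.480) against fed AFCs, 0.22 without fed AFC replicate 1 and 0.56 without fed AFC replicate 2, and 0.62 (SE 0.27, unadjusted p = 0.0393, adjusted p = 0.251) against starved AFCs.

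*to* (FBgn0039298, chromosome 3R from 25240180 to 25241668 on the plus strand) had the largest fitted difference of the 10. It was read at 9.97, 11.7 and 1.16 CPM in SFCs (579, 260 and 55 reads), at 0.48, 0.69 and 0.38 CPM in starved AFCs (18, 29 and 15 reads) and at 1.22, 0.38 and 0.38 CPM in fed AFCs (60, 15 and 12 reads). SFC replicates 1 and 2 stood far above every AFC library, and SFC replicate 3 stood above the starved AFC libraries but just below fed AFC replicate 1. Within SFCs the highest library was 10.2 times the lowest, a larger ratio than in 95.9% of the genes.

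The LFC of *to* was 3.51 (SE 0.97), an 11.4-fold higher level in SFCs than in fed AFCs, at an unadjusted p of 0.00339 and an adjusted p of 0.0772 (edgeR). Against starved AFCs it was 3.87 (SE 0.99), 14.6-fold, at an adjusted p of 0.0679. The call turned on single libraries. Without SFC replicate 3 the adjusted p was 0.0407 against fed AFCs and 0.0320 against starved AFCs, and without fed AFC replicate 1 it was 0.0410 and 0.0363. DESeq2 gave 0.00192 and 0.000446 and limma-voom 0.264 and 0.266. Without SFC replicate 2 the LFC against fed AFCs was 3.18 (adjusted p = 0.149). Over the 19 alternatives the adjusted p ranged from 0.00192 to 0.294 against fed AFCs and from 0.000446 to 0.266 against starved AFCs. In starved against fed AFCs the LFC was -0.36 (95% interval -2.31 to 1.59), and it was 0.43 without fed AFC replicate 1.

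**Figure D3:**
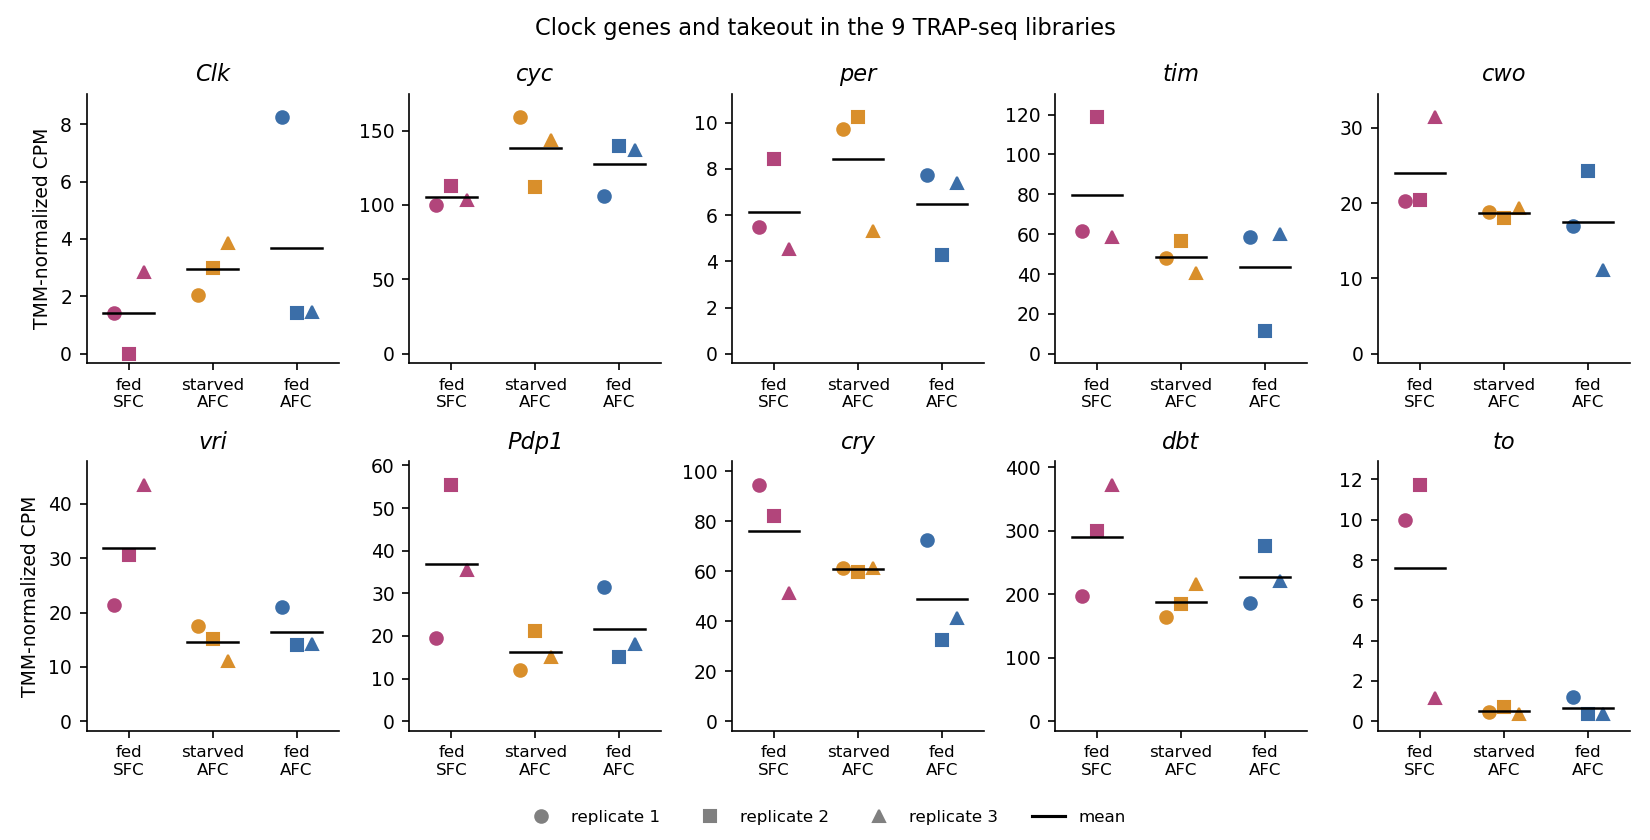
TMM-normalized CPM of each member in each library on a linear axis from 0, with the groups fed SFC, starved AFC and fed AFC from left to right, a marker shape for each replicate number and a line at the group mean. *to* is near 10 CPM in 2 SFC libraries and at most 1.22 CPM elsewhere, and *vri* is the only gene whose SFC points all lie above both other groups.

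Markers of other tissues were also read in these libraries, and their part in these values was not tested. *to* is known from fat body as well as from other tissues, and the summed level of 7 fat body markers was 789 to 1907 CPM in SFCs, 228 to 605 CPM in starved AFCs and 291 to 1039 CPM in fed AFCs. No fat body marker was higher in SFCs than in fed AFCs past the threshold, and 1 of the 7, *Lsp2*, was higher than in starved AFCs. The sum was carried by *Lsp2*, a larval storage protein gene, with 566, 933 and 1705 CPM in SFCs. The other 6 markers summed to 223, 293 and 202 CPM in SFCs, 175 to 397 CPM in starved AFCs and 91.8 to 263 CPM in fed AFCs. Over the SFC replicates *Lsp2* was highest in replicate 3, where *to* was lowest, while the sum of the other 6 had the order of *to* (9.97, 11.7 and 1.16 CPM). At least 1 library had 0 reads on each of 2 fat body markers, and none of the 7 was at 0 in all libraries. The 10 muscle markers summed to 1237, 1787 and 804 CPM in SFCs, again in the order of *to*, against 344 to 483 CPM in starved AFCs and 342 to 650 CPM in fed AFCs. Of these, 6 of 10 were called higher in SFCs than in fed AFCs and 5 of 10 higher than in starved AFCs. Oenocyte markers summed to 237, 250 and 214 CPM in SFCs, also in the order of *to*. They summed to 149 to 245 CPM in starved AFCs and 85.6 to 128 CPM in fed AFCs, with 1 of 3 called, *Cyp4g1*. Gut markers had that order too, at 2534, 4253 and 2228 CPM in SFCs, yet their sum was lower there than in AFCs. They summed to 4324 to 5947 CPM in starved AFCs and 5307 to 9172 CPM in fed AFCs. Of the gut markers, 5 of 9 were called lower in SFCs and 3 of 9 lower in starved AFCs than in fed AFCs. Between SFCs and starved AFCs 1 was higher and 2 were lower in SFCs. Malpighian tubule markers summed to 511, 658 and 629 CPM in SFCs, in another order than *to*. They summed to 313 to 721 CPM in starved AFCs and 248 to 520.2 CPM in fed AFCs. Hemocyte markers had the order of *to*, at 5.18, 9.03 and 4.08 CPM in SFCs, while glia, germline and neuron and photoreceptor markers did not. Every sum in that order varied less over the SFC replicates than *to*. The share of all genes with that order was not computed. The paper names weak activity of the GR1 driver in the gut and of the PG150 driver in Malpighian tubules.

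Markers of the labelled cells were present. The 11 SFC markers summed to 853 to 1223 CPM in SFCs, 840 to 968 CPM in starved AFCs and 813 to 930 CPM in fed AFCs, and 0 of 11 passed an adjusted p of 0.05 between any groups by edgeR, with 1 of 11 at an unadjusted p below 0.05 in SFCs against fed AFCs, 0 in starved against fed AFCs and 2 in SFCs against starved AFCs. Most of the SFC marker sum came from *Vha16-1* and *Vha100-2*, at 511 to 653 and 164 to 197 CPM in SFCs. Of 3 mid/late follicle cell markers, 1, *Sox14*, was called lower in SFCs in both SFC comparisons. The others were not called. *Yp1* had a positive LFC of 0.60 in both, and *br* had -0.72 against fed AFCs and 0.90 against starved AFCs. Neuron and photoreceptor markers, which matter here because clock genes are best known from those cells, summed to 48.4, 45.2 and 11.4 CPM in SFCs, 4.54, 278 and 28.0 CPM in starved AFCs and 41.6, 4.49 and 36.3 CPM in fed AFCs. The 278 CPM of starved AFC replicate 2 were carried by *ninaE* (220 CPM) and *trp* (38.7 CPM). The other markers of this set were each at most 5.98 CPM there. In that library *per* was at its highest (10.2 CPM) while *tim* (56.5 CPM) and *cry* (59.7 CPM) lay within the range of the other libraries. Starved AFC replicate 1, with a marker sum of 4.54 CPM, had *per* at 9.72 CPM. None of the 8 neuron, 5 Malpighian tubule, 3 glia and 3 hemocyte markers was called by edgeR in any comparison, and none had an unadjusted p below 0.05. Of 6 germline markers *bcd* was called higher in SFCs in both SFC comparisons.

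Salmon divides the reads of a gene between its annotated transcripts, so that start sites and ends of the members could be compared, as a description and without a test. *cyc* and *cry* have 1 transcript each. *cwo* reads were given almost wholly to cwo-RC, from 94.8% to 100% per library. All *Clk* reads in 6 of the 8 libraries with any were given to Clk-RH, which starts 8373 bases downstream of the long transcript Clk-RA. Clk-RA took 71.9% of the reads in fed AFC replicate 1 and 53.4% in starved AFC replicate 2, and 0% in every other library with *Clk* reads.

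The 2 transcripts of *per* differ only by an intron of 86 bases in the 3′ UTR (chromosome X, 2692391 to 2692476), which is spliced in per-RB and kept in per-RA. This intron is known for splicing that depends on temperature and light. The spliced transcript held 71.5, 100 and 22.5% of *per* reads in SFCs, 51.9, 42.6 and 28.9% in starved AFCs and 38.3, 75.5 and 67.3% in fed AFCs, so the groups overlapped fully. The estimate is coarse, because at even coverage only 3.15 to 8.13 reads of a library would fall on those 86 bases. The end of *per* also shares 49 bases with *daywake* (*dyw*) on the other strand, and the library kit does not mark strand. *dyw* was at most 0.58 CPM in any library.

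*Pdp1* has 13 annotated transcripts from 4 start sites. The most upstream start held 60.8, 19.3 and 45.6% of reads in SFCs, 75.3, 45.3 and 48.2% in starved AFCs and 0, 73.1 and 77.5% in fed AFCs. Fed AFC replicate 1 stood apart, with 60.5% of reads on the third start, against 5.9 to 34.0% in the other 8 libraries. The *Pdp1* transcript that ends 2422 bases beyond the first end site held 12.4, 47.1 and 19.0% of reads in SFCs, 4.2, 3.7 and 6.9% in starved AFCs and 0, 11.9 and 9.0% in fed AFCs. All SFC values of that share lay above all AFC values, with SFC replicate 1 and fed AFC replicate 2 close. It is named from among the shares of every annotated transcript, start site and end of the members. How often transcripts of other genes separate in this way was not computed.

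*vri* reads came mostly from the third of its 3 start sites, with 47.8, 87.3 and 70.6% in SFCs, 100, 76.8 and 77.2% in starved AFCs and 65.1, 100 and 100% in fed AFCs. The remainder lay on vri-RC, which starts 10703 bases from the first site, save for 7.06% of reads on the first site in fed AFC replicate 1. *tim* reads moved between the first start site and one 901 bases downstream. The first held 72.3, 0 and 76.1% in SFCs, 61.3, 24.1 and 15.1% in starved AFCs and 63.0, 96.05 and 58.3% in fed AFCs. The groups overlapped and replicates of a group differed widely. Starved AFC replicate 1 was the only starved AFC library to reach the range of fed AFCs. *dbt* reads were mostly on dco-RA, from 40.6% in SFC replicate 1 to 79.0% in starved AFC replicate 1. The long-ended dco-RD held 16.4, 42.1 and 22.2% in SFCs, 18.5, 19.4 and 22.7% in starved AFCs and 22.4, 20.9 and 27.9% in fed AFCs. *to* has 2 transcripts, to-RB running 215 bases further in the 3′ UTR, and the longer one held 42.2, 100 and 60.2% in SFCs. In the AFC libraries it held all reads or, in starved AFC replicate 3, none, on 12 to 60 reads.

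**Figure D4:**
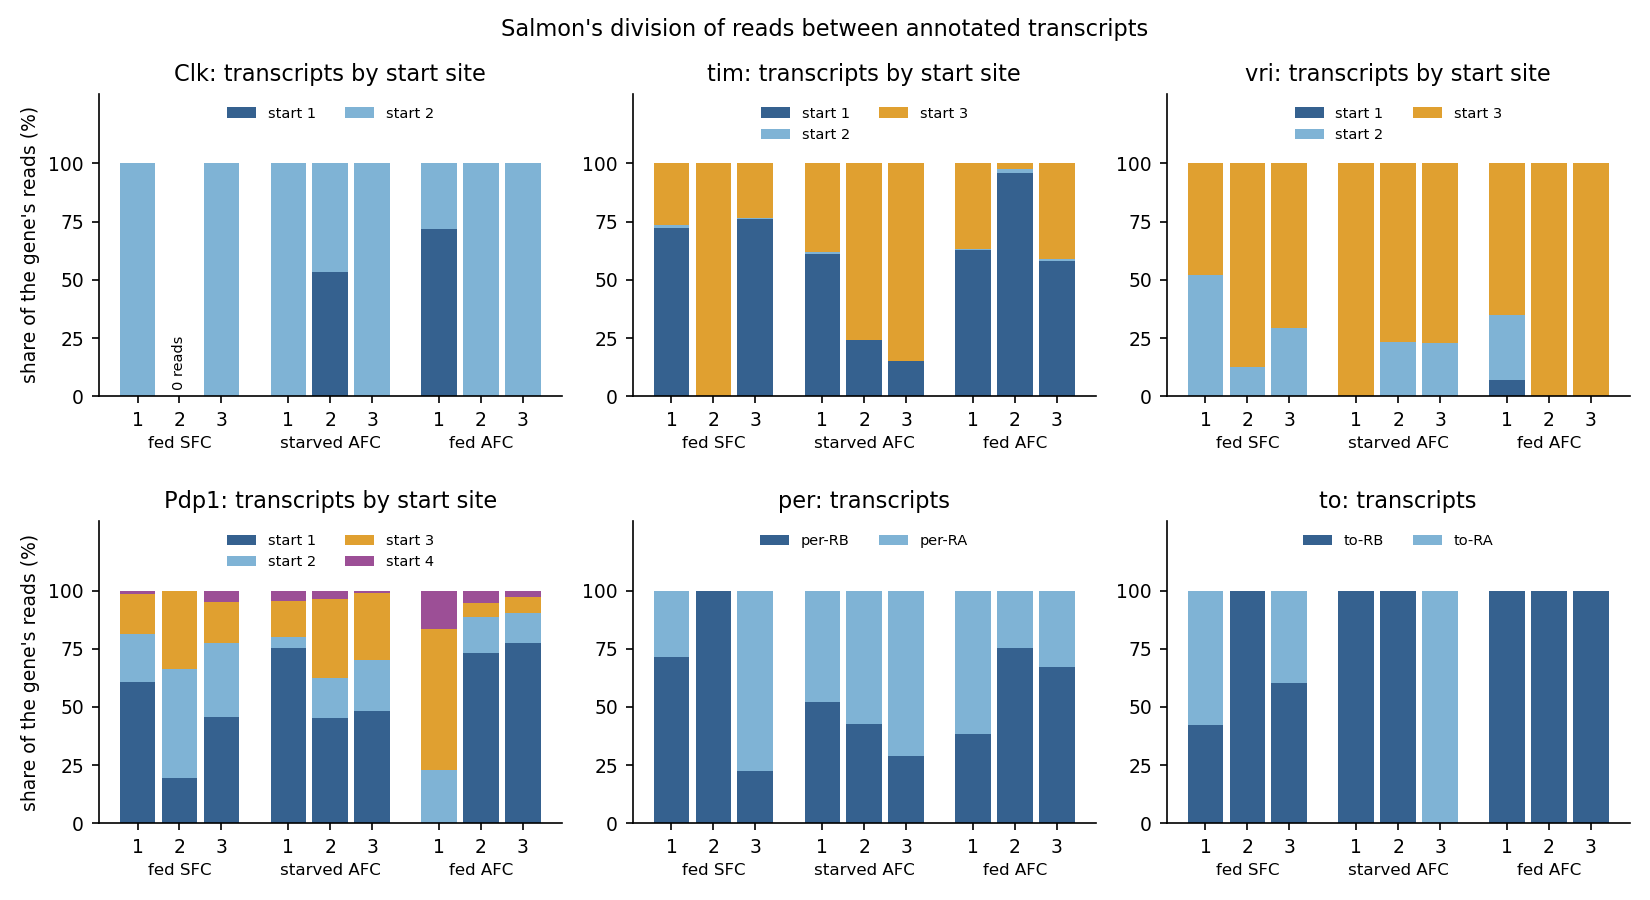
Share of each gene's reads that Salmon gave to transcripts grouped by start site (*Clk*, *tim*, *vri*, *Pdp1*, with start 1 the most upstream) or to single transcripts (*per*, *to*), as stacked bars in percent, 1 bar per library with fed SFC, starved AFC and fed AFC from left to right. Replicates of a group can differ widely, for example 22.5 to 100% per-RB within SFCs.

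*to* belongs to a family of secreted proteins with a juvenile hormone-binding domain. Of 29 other family members listed, 25 were tested. In SFCs against fed AFCs 2 of 25 were higher and 0 lower at an adjusted p below 0.05, and all 3 SFC values lay above all 3 fed AFC values in 8 and below them in 0. Over all genes 2.99% were called, 1.21% were higher and 20.9% did not overlap in either direction. The median LFC of the 25 was 0.42, beside -0.10 over all genes. Against starved AFCs 2 of 25 were higher and 0 lower, beside 1.24% of all genes called higher, and in starved against fed AFCs 0 of 25 were called by edgeR, with 2 at an unadjusted p below 0.05. In starved against fed AFCs the median LFC of the 25 was -0.13, beside -0.09 over all genes.

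*Jhbp12* (*CG13618*, chromosome 3R from 24524794 to 24527533) showed the largest difference of the family. It had 12.3, 21.5 and 3.95 CPM in SFCs, 0.45, 0.17 and 0.26 CPM in starved AFCs and 0.32, 0.41 and 0.13 CPM in fed AFCs. All SFC values lay far above all AFC values, which rest on 4 to 17 reads. The LFC was 5.42 (SE 0.86) in both SFC comparisons, at adjusted p = 0.00644 against fed AFCs and 0.00758 against starved AFCs. limma-voom did not call it (adjusted p = 0.0821 and 0.0927), and the other 18 alternatives did. As with *to*, SFC replicate 3 was the lowest SFC library.

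*Jhbp13* (*CG5945*, chromosome 2L from 13239989 to 13241773) had 38.1, 50.8 and 16.5 CPM in SFCs, 6.16, 5.48 and 10.3 CPM in starved AFCs and 13.0, 9.31 and 11.1 CPM in fed AFCs. Its LFC was 1.65 (SE 0.41, adjusted p = 0.0499) against fed AFCs and 2.26 (SE 0.42, adjusted p = 0.0156) against starved AFCs. The first call was kept in 7 of 19 alternatives. Those that lost it include every fit without a single fed AFC library, without starved AFC replicate 1 or 2 and without SFC replicate 1 or 2 (adjusted p up to 0.182). The second was lost without starved AFC replicate 1 (0.0716) or 2 (0.0548).

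The values of the genes beside *to* follow, without a test of likeness. *Jhbp7*, a family member 1284 bases away, had 7.65, 77.2 and 2.23 CPM in SFCs, 24.7, 5.19 and 0.77 CPM in starved AFCs and 6.42, 4.85 and 1.25 CPM in fed AFCs, with an LFC of 2.79 (SE 1.26, adjusted p = 0.244) against fed AFCs. Over the SFC replicates it had the order of *to*, and its highest fed AFC library was also replicate 1. *CG11854*, 351 bases from *to*, was not tested, at 0 to 1.02 CPM per library.

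**Figure D5:**
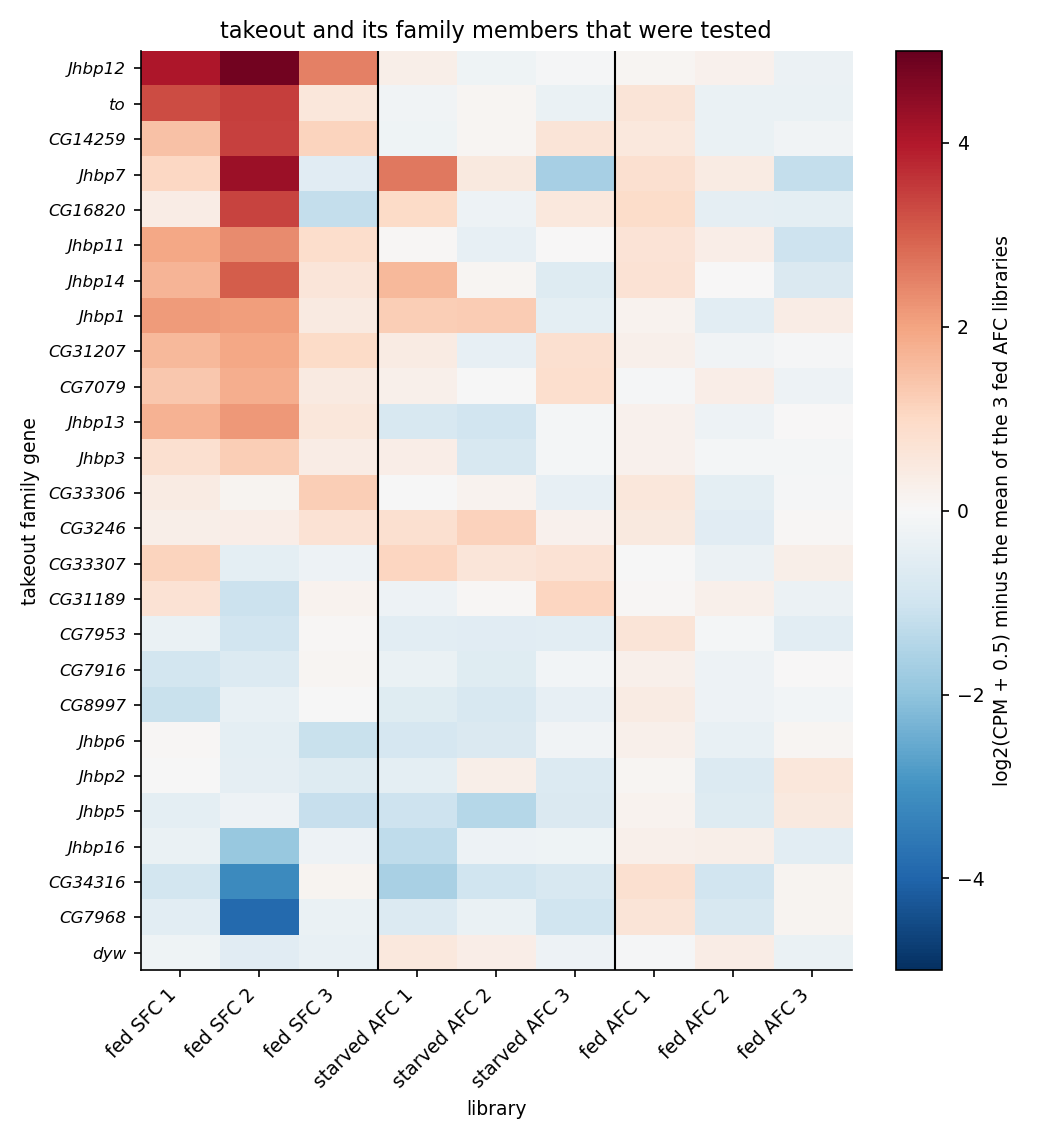
*to* and the 25 tested members of its family (rows, ordered by LFC in SFCs against fed AFCs) in the 9 libraries (columns, with fed SFC, starved AFC and fed AFC from left to right). Colour is log2(CPM + 0.5) minus the mean of the 3 fed AFC libraries, red above and blue below. *Jhbp12* and *to* are at the top, and SFC replicate 3 is paler than SFC replicates 1 and 2 in both.

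Other genes of the pathway were taken from lists by role. Their counts stand beside 2.99% of all genes called in SFCs against fed AFCs and 19.7% with an unadjusted p below 0.05, and 2.22% and 17.9% in SFCs against starved AFCs. Of 16 kinases, phosphatases and degradation factors that act on clock proteins, 0 were called in any comparison by edgeR, with 2 at an unadjusted p below 0.05 in SFCs against fed AFCs, 0 in starved against fed AFCs and 2 in SFCs against starved AFCs. Of 13 tested cofactors of clock transcription and translation, 1, *kis*, was higher in SFCs than in fed AFCs. *kis* (kismet, a chromatin remodeller) had 380, 272 and 522 CPM in SFCs, 121, 219 and 92.1 CPM in starved AFCs and 179, 106 and 90.5 CPM in fed AFCs. Its LFC was 1.64 (SE 0.38, adjusted p = 0.0370), and the call was lost without fed AFC replicate 2 (0.116) or 3 (0.181) and without SFC replicate 1 (0.0561) or 3 (0.112), and also with the replicate number as a block (0.0697). Against starved AFCs it did not pass (adjusted p = 0.0719). In SFCs against fed AFCs the median LFC was 0.22 over the 16 genes and 0.46 over the 13. Of 9 bHLH-PAS relatives of *Clk* and *cyc*, 0 were called, with 1, 0 and 1 at an unadjusted p below 0.05 in the 3 comparisons, and a median LFC of 0.43 in SFCs against fed AFCs.

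Of 15 genes of clock neuropeptides, light input and output, 1 was called lower in SFCs and 0 higher, with a median LFC of -0.72 against fed AFCs. This was *Dh44*, a diuretic hormone that also acts downstream of brain clock neurons. It had 0.43, 0 and 0.44 CPM in SFCs (25, 0 and 21 reads), 34.8, 95.4 and 53.8 CPM in starved AFCs and 7.17, 4.33 and 22.5 CPM in fed AFCs. The 3 groups did not overlap. The LFC was -5.10 (SE 0.80, adjusted p = 0.00607) against fed AFCs and -7.54 (SE 0.87, adjusted p = 0.00121) against starved AFCs. In starved against fed AFCs it was 2.44 (SE 0.67, adjusted p = 0.375), which did not pass. limma-voom called neither SFC difference (0.185 and 0.0580).

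Of 4 tested relatives of *Pdp1*, *cry* and *tim*, 1 was called. *phr6-4*, the photolyase of the cryptochrome family that repairs (6-4) photoproducts, had 82.7, 45.5 and 54.4 CPM in SFCs, 20.3, 24.1 and 19.7 CPM in starved AFCs and 29.4, 23.4 and 22.3 CPM in fed AFCs. All SFC values lay above all AFC values. Its LFC was 1.28 (SE 0.26, adjusted p = 0.0222) against fed AFCs and 1.51 (SE 0.26, adjusted p = 0.0119) against starved AFCs. The first call was lost without fed AFC replicate 2 (0.0720) or 3 (0.139) or SFC replicate 1 (0.0533) and with only the groups compared (0.0505), and the second without starved AFC replicate 1 (0.0565) or 3 (0.0568). *timeout*, the paralog of *tim*, had an LFC of 0.16 (adjusted p = 0.690) in SFCs against fed AFCs.

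The members were also compared across the 9 libraries, as a description over libraries that share their groups and depth. On log2 CPM, *vri* and *Pdp1* correlated at Pearson r = 0.77, *cry* and *to* at 0.77, *tim* and *cry* at 0.72 and *per* and *tim* at 0.55, while *cyc* ran against *Pdp1* (-0.71) and *to* (-0.69). With the group means removed these became 0.52, 0.84, 0.60, 0.80, -0.45 and -0.32. These pairs are a choice from all pairs of members, and others were as strong. *Pdp1* and *to* had 0.66 and *cyc* and *vri* -0.65, which became 0.27 and -0.21 with the group means removed. *cry* and *dbt* had -0.29 and *tim* and *cwo* -0.24, which became -0.81 and -0.77. The 3 genes most like *to* were *Gr61a* (r = 0.96), *CG12268* (0.96) and *Obp56a* (0.95), of which *Gr61a* encodes a gustatory receptor and *Obp56a* an odorant-binding protein. *Obp56a* had 24.6, 16.9 and 3.49 CPM in SFCs, 0.24 to 0.67 CPM in starved AFCs and 0.51 to 2.09 CPM in fed AFCs. Its low SFC replicate 3 is part of the likeness by which it was picked. Most like *vri* were *mt:ori* (0.97), at most 2.17 CPM in any library, *Adh* (0.96) and *dnt* (0.95). *Adh*, alcohol dehydrogenase, had 1658, 1982 and 3088 CPM in SFCs, 908 to 1151 CPM in starved AFCs and 821 to 1251 CPM in fed AFCs. Most like *tim* were *CG45116* (0.93), the potassium channel gene *Irk2* (0.93) and *CG11149* (0.92).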

How the data were processed

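The authors trimmed adapters, quantified single-end reads per transcript against BDGP6 with Salmon 1.1.0 (selective alignment, automatic library type, GC-bias correction) and deposited 1 table per library. Its estimated counts are the authors' values without normalization and need not be whole. The TPM deposited by the authors beside them weighted the effective lengths of a gene's transcripts and gave an alternative order of levels. The weighted effective lengths served for levels per length and for length offsets.

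Transcripts were matched by identifier to Ensembl BDGP6.54 release 115 (30179 of 30215 transcripts, 14077 genes), and counts were summed per gene and rounded. Up to 0.114% of a library's reads lay on the 36 transcripts without a match, and 21 rRNA genes and pseudogenes were kept. All columns of per-sample values belong to a sample (0 set aside). edgeR 4.0.16 (R 4.3.3) fitted 1 mean per group to all 9 libraries, with filterByExpr (minimum count 10), TMM scaling and Benjamini-Hochberg adjustment over all genes of a comparison. LFC intervals are 95%. CPM use library sizes scaled by TMM, and correlations use log2 CPM with a prior count of 2. Counting floors (3 reads) cover counting error only. The common dispersion was 0.362. Python 3.11.15, pandas 2.3.3, numpy 2.4.6, scipy 1.17.1 and matplotlib 3.10.9 made the tables and figures. The code was tested on simulated counts.

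The members, role lists and markers were chosen with earlier results of these data known. Named are all members, up to 5 genes per role list with the smallest adjusted p past 0.05 in a comparison, the 3 genes most like *to*, *vri* and *tim*, *RpL10Ab* and the markers. *dyw*, *Jhbp7*, *CG11854* and *timeout* were named after their values were seen. Alternatives were DESeq2 1.42.0 (size factors, Wald test), limma-voom (limma 3.58.1), other filters, length offsets, a fit of just the groups compared, a block for the replicate number, rRNA left out and each library left out. Running them for called list genes, and the fat body sum without *Lsp2*, were added after the data were seen.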

Additional observations from a re-analysis of the deposited data

How the results depend on the processing

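The number of members called was 0 in each comparison by edgeR. In SFCs against fed AFCs it was 1 with DESeq2 (*to*) and 0 to 1 with single libraries left out. In SFCs against starved AFCs it was 2 with DESeq2 (*vri* and *to*) and 0 to 1 with single libraries left out. The libraries behind the change to 1 were fed AFC replicate 1, SFC replicate 1 (*vri*, against starved AFCs only) and SFC replicate 3. A group of 2 left by this shares the spread of the other groups.

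Under the alternatives 544 LFCs of members kept their sign and their side of the threshold, 8 passed it and 18 changed sign, none of them past the threshold. With the replicate number as a block 0 members were called, and the LFC of *Clk* in starved against fed AFCs was 0.16. Whether the numbers pair the samples cannot be told here. The same-number correlations of library deviations ran from -0.53 to 0.39, and none were computed between different numbers to set beside them. All genes called with the block numbered 186 in SFCs against fed AFCs, against 325 without it.

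The other changes of sign came with libraries left out, singly or (fed AFC replicate 1 with SFC replicate 2) as a pair. In SFCs against fed AFCs the LFC then ran from -2.32 to 0.60 for *Clk* (0.02 without fed AFC replicate 1 alone) and from -0.27 to 0.11 for *per*. In starved against fed AFCs it ran from -0.66 to 1.06 for *Clk*, from -0.035 to 0.25 for *cyc*, from -0.26 to 0.51 for *tim*, from -0.12 to 0.45 for *cwo*, from -0.33 to 0.044 for *vri* and from -0.62 to 0.43 for *to*. Leaving out fed AFC replicate 1 changed the sign for *Clk*, *cyc*, *vri* and *to* there, and moved the median LFC of all genes in SFCs against fed AFCs to 0.05. The cause of these changes was not tested.

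Depth limits *Clk*, *per* and *to* most, at 0 to 406, 166 to 428 and 12 to 579 reads per library. Shares of transcripts rest on Salmon's division of these reads, with no measure of its error. Over all genes, the calls in SFCs against fed AFCs numbered 325 by edgeR and 1097 by DESeq2, and 85 (without fed AFC replicate 3) to 487 (without fed AFC replicate 1) with libraries left out. In starved against fed AFCs they numbered 24 by edgeR, 101 by DESeq2 and 8 to 23 with libraries left out, and in SFCs against starved AFCs 241 by edgeR, 937 by DESeq2 and 111 to 383 with libraries left out.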
